A study of Drosophila melanogaster with 6 samples.

Results

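The barcodes described here carry RNA of the T-box gene H15, a marker of the ventral side of the leg, and no RNA of its dorsal counterpart bifid (bi). A barcode was taken when it had at least 500 detected genes, at most 10% of its unique molecular identifiers (UMIs, tags that count RNA molecules) from mitochondrial genes, at least 1 UMI of H15 and none of bi, Hml, elav, repo or twi. The last 4 genes mark hemocytes, neurons, glia and muscle precursors. The rule took 8918 of 71346 barcodes, and they are called H15-positive below. Each was set against a barcode of the same library with no UMI of H15, mid, Hml, elav, repo or twi and a total UMI count within 2%, called matched. These matched barcodes may carry bi, so 2 other matched sets, without bi and with bi, are given beside named genes whose call they end or turn.

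The libraries came from pupal forelegs of Drosophila melanogaster, cut to the first tarsal segment, which bears the sex comb in males, and dissociated for single-cell RNA sequencing at 12 to 36 h after puparium formation. Pupae of the 12 h female, 12 h male, 20 h male and 36 h male libraries carried dsx-GAL4 with UAS-mCherry, those of the 16 h male library carried dsx-GAL4 with UAS-GFP, and those of the 24 h female library were of strain RAL-517. Between 65 and 70 segments were pooled for each library by the labels, and each combination of sex and age is 1 library. The comparison of H15-positive with matched barcodes is therefore repeated in 6 libraries, while any difference between ages also carries sex, genotype and preparation, which cannot be told apart.

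The fly leg is patterned around its circumference by 2 secreted signals, with decapentaplegic (dpp) acting dorsally and wingless (wg), a Wnt ligand, acting ventrally. H15 and its neighbouring paralog midline (mid) are T-box repressors known as ventral selector genes downstream of Wg, and bi and the Dorsocross genes are T-box genes known as dorsal targets of Dpp. The posterior compartment expresses engrailed (en), invected (inv) and hedgehog (hh), and anterior cells transduce the Hedgehog signal through patched (ptc) and cubitus interruptus (ci).

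H15-positive barcodes were 10.9% of the 12 h female library, 11.5% of the 12 h male, 12.2% of the 16 h male, 16.3% of the 20 h male, 13.2% of the 24 h female and 11.1% of the 36 h male library. The 20 h male library had the highest share, also after every barcode was thinned to 2000 UMIs, when its share was 11% and the other 5 lay between 6.51% and 8.26% (0 to 2341 barcodes per library were too shallow to thin). The counts by library ran from 1272 in the 36 h male to 1838 in the 24 h female. Median UMIs of H15-positive barcodes ran from 5056.5 in the 16 h male to 12998 in the 12 h male, so the 16 h library was the shallowest. The mCherry transcript was found in the 4 libraries whose labels name it and GFP in the 16 h male alone. Between 23 and 51 barcode sequences were shared by each pair of libraries, each of 10610 barcodes or more.

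The values that chose the barcodes are given as a description only. A single H15 UMI carried 612, 645, 861, 573, 689 and 677 of the H15-positive barcodes from the 12 h female to the 36 h male, and 4 or more UMIs carried 272, 255, 106, 577, 468 and 155. H15 stood at 169 to 308 CPM (UMIs scaled to a common library total, per 1e6) over all H15-positive barcodes, lowest in the 12 h male and highest in the 20 h male. The 16 h and 20 h males did not differ beyond their counting intervals, nor did the 24 h female and the 36 h male. The rule left out many barcodes that had H15: bi was in 1191 and elav in 1100 of 3155 such barcodes at 12 h in females, while at 36 h in males bi was in 355 and elav in 695 of 2268. Barcodes with bi had an H15 UMI in 5.98% to 18.9% of cases, and barcodes of the same depth without bi in 20.8% to 40.0%, with the share lower beside bi in all 6 libraries. Within 100 genes above the gene minimum lay 0 to 44 H15-positive barcodes per library, and within 100 genes below it 0 to 58.

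H15 was also counted in barcodes that carried markers of other cells, and its source there was not tested. Thinned to 2000 UMIs, 1.20% to 2.84% of barcodes with at least 20 UMIs of muscle markers had H15 in the 4 libraries with at least 85 such barcodes, with unthinned median depths of 14966 to 18020 UMIs. Among barcodes with at least 20 UMIs of glia markers the thinned share was 5.71% of 35 in the 12 h female, 8.43% of 83 in the 12 h male, 8.33% of 12 in the 20 h male, 2.30% of 87 in the 24 h female and 1.56% of 64 in the 36 h male, at unthinned median depths of 15326.5 to 89015. None of 4 had it in the 16 h male. Among barcodes without Hml, elav, repo and twi the thinned share was 8.04% to 13.2%, at unthinned median depths of 5112 to 12047. Barcodes with at least 20 UMIs of neuron markers had a thinned share of 2.79% to 7.06% in the first 5 libraries but 16.8% in the 36 h male, where the unthinned share was 39.4%. At 36 h the thinned share in neuron barcodes was thus above the 8.04% of barcodes without those 4 genes. Within the H15-positive barcodes of that library 10.9% had at least 3 UMIs of 5 neuron genes, and 6.35% of its matched barcodes did.

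The epithelial markers were present. A list of 9 epithelial genes, among them grainy head (grh, an epidermal transcription factor) and crumbs (crb, an apical determinant), summed to 1917 to 2987 CPM in H15-positive and 1476 to 2819 CPM in matched barcodes, and was higher in 6 of 6 libraries. None of its genes was at 0 in any library. Against barcodes with bi grh (0.15, edgeR adjusted p = 0.144) and crb (0.20, edgeR adjusted p = 0.082) did not pass. The marker TwdlE, a Tweedle cuticle gene on 2L at 7857957 to 7860839 (minus strand, overlapping lectin-28C on the other strand), did not set these barcodes apart. It stood at 129, 204, 108, 11.9, 11.7 and 133 CPM in H15-positive and 96.8, 171, 106, 24.7, 17.2 and 111 CPM in matched barcodes from the 12 h female to the 36 h male, higher in 4 libraries and lower in 2. The fitted log2 difference was -0.08 ± 0.20 (SE), with an edgeR adjusted p of 0.85 over 6 libraries.

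mid, the paralog of H15, was found more often in H15-positive than in matched barcodes. The genes lie 45045 bases apart on 2L (H15 at 5404280 to 5416593, mid at 5461639 to 5467610, both on the plus strand, Ensembl annotation of BDGP6.54), with no protein-coding gene between them. With mid left out of the choice of matched barcodes, a mid UMI was present in 60.6% of H15-positive and 27.6% of matched barcodes of 12 h females, 71.9% and 27% in the 12 h male, and 46.4% and 14.7% in the 16 h male. It was present in 54.5% and 14.9% in the 20 h male, 75.4% and 21.8% in the 24 h female. At 36 h it was present in 59.8% and 17.2%. The 2 sets did not overlap. The mean difference was 40.9 ± 8.13 percentage points (SD, n = 6), higher in 6 of 6 libraries, with an exact two-sided sign-flip permutation p of 0.0313, the smallest that 6 pairs can give. After thinning the mean difference was 16.7 ± 3.17 percentage points (n = 6, exact permutation p = 0.0313). These matched barcodes may carry bi, which H15-positive barcodes lack by the rule. Against matched barcodes without bi the mean difference was smaller, at 30.9 ± 4.87 percentage points (n = 6, exact permutation p = 0.0313). In that set 20.9% to 39.2% of matched barcodes had a mid UMI.

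**Figure D1:**
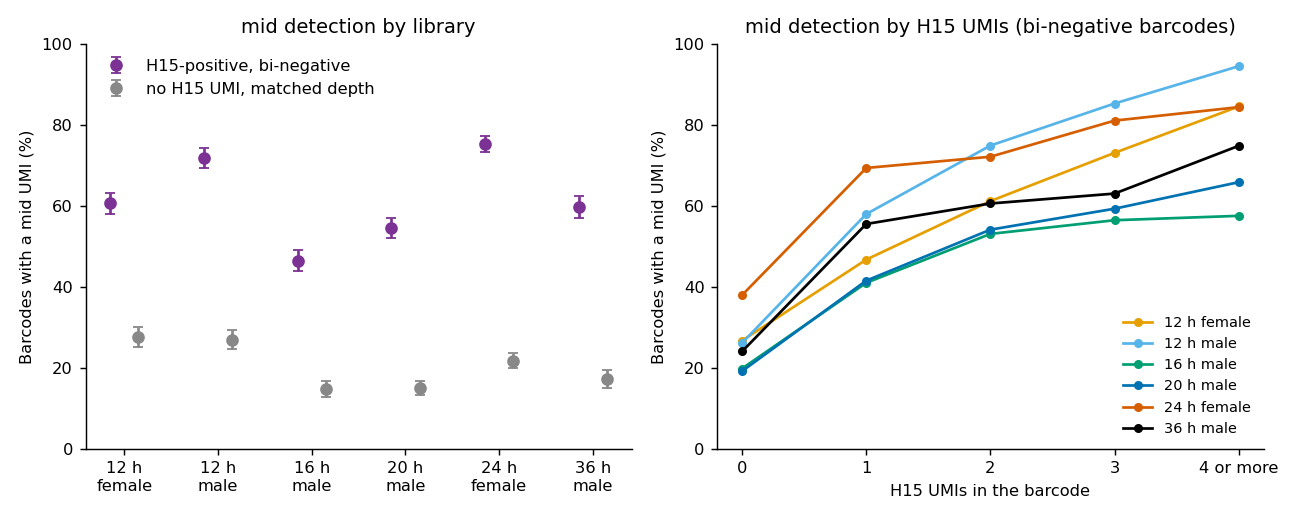
Left: share of barcodes with a mid UMI (percent) in H15-positive barcodes (purple) and matched barcodes without H15 (grey), with exact 95% binomial intervals, for each of the 6 libraries. The purple points lie between 46.4% and 75.4% and the grey points between 14.7% and 27.6%. Right: the same share by the number of H15 UMIs in bi-negative barcodes, 1 line per library.

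The share with mid also climbed with the number of H15 UMIs. In the 12 h male it was 26.2% with no H15 UMI, 58.0% with 1, 74.9% with 2, 85.3% with 3 and 94.5% with 4 or more. Median depth climbed beside it, being 5910.5 UMIs with no H15 UMI and 15733 with 4 or more, and its part was not tested. In the 16 h male the median depth lay between 4843 and 5477 UMIs across the 5 classes, and the share with mid was 19.8%, 41.0%, 53.1%, 56.5% and 57.5%. There the classes with 2, 3 and 4 or more H15 UMIs did not differ beyond their intervals. mid stood at 92.1 CPM in the 20 h male and 113 to 152 CPM in the others over all H15-positive barcodes. The 20 h male also had the highest H15, which did not differ from that of the 16 h male beyond counting intervals.

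Across 8360 genes with enough UMIs to test, 596 were higher (7.13%) and 593 lower (7.09%) in H15-positive than in matched barcodes, by edgeR's quasi-likelihood test with Benjamini-Hochberg adjustment at 0.05 and library as a block. Of these, 543 were higher and 478 lower in all 6 libraries. The median log2 difference over all genes was 0.03. Against matched barcodes with bi, 219 were higher (2.64%) and 232 lower (2.79%), and against matched barcodes without bi 908 were higher (11.1%) and 808 lower (9.85%). With barcodes of any UMI of 8 other-cell markers removed from both sets, 178 of 6578 genes were higher (2.71%) and 267 lower (4.06%). In the main comparison and these 3 together, 86 genes were called higher and 68 lower in all 4. With no block for library the counts were 7 and 69, and without the 12 h female library, the one whose loss cost most higher calls, they were 253 and 381. The differences were unequal in size: 36 genes were higher by over 1 log2 unit and 328 lower by over 1.

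wg was the gene with the largest positive log2 difference of all those called, and other genes of its pathway followed. Of 16 listed, 15 were tested, 9 were higher and 2 lower, beside 7.13% higher and 7.09% lower over all genes. Their median log2 difference was 0.53, against 0.03 over all genes. wg itself (2L, 7307159 to 7316265, plus strand) stood at 66.5, 86.8, 71.5, 81.4, 99.9 and 58.2 CPM in H15-positive barcodes and 5.61, 3.82, 8.49, 4.81, 3.75 and 3.93 CPM in matched barcodes, in library order from the 12 h female to the 36 h male. Every H15-positive value exceeded every matched value. The log2 difference was 3.98 ± 0.23 (SE), with an edgeR adjusted p of 0.000327, and it was 5.01 against matched barcodes with bi and 3.25 against those without. A wg UMI was found in 22.3% to 39.6% of H15-positive and 2.06% to 5.03% of matched barcodes.

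Wnt6, a Wnt ligand gene 17448 bases from wg on the same strand, followed it. It stood at 81.3, 76.6, 65.9, 56.4, 48.2 and 46.5 CPM in H15-positive and 6.34, 3.0, 6.87, 2.78, 3.52 and 5.24 CPM in matched barcodes. The sets did not overlap, and the H15-positive value was lowest in the oldest library. The log2 difference was 3.80 ± 0.21 (SE; edgeR adjusted p = 0.000252). The third gene of this cluster, Wnt10, had 5 to 31 UMIs per library in H15-positive and 1 to 6 in matched barcodes, higher in 6 of 6, and was too low to be tested in the main comparison (2.16 against barcodes without bi, edgeR adjusted p = 0.00187). Wnt4, which lies 29987 bases on the other side of wg, was higher in 3 libraries and lower in 3 (log2 difference 0.27 ± 0.22, edgeR adjusted p = 0.45), but was higher by 1.24 against barcodes without bi (edgeR adjusted p = 0.00148). Of the Wnt genes elsewhere in the genome, Wnt5 was higher by 0.53 ± 0.05 (edgeR adjusted p = 0.000809) and Wnt2 by 0.36 ± 0.09 (edgeR adjusted p = 0.043), the last lost against matched barcodes with bi (0.07, edgeR adjusted p = 0.786).

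**Figure D2:**
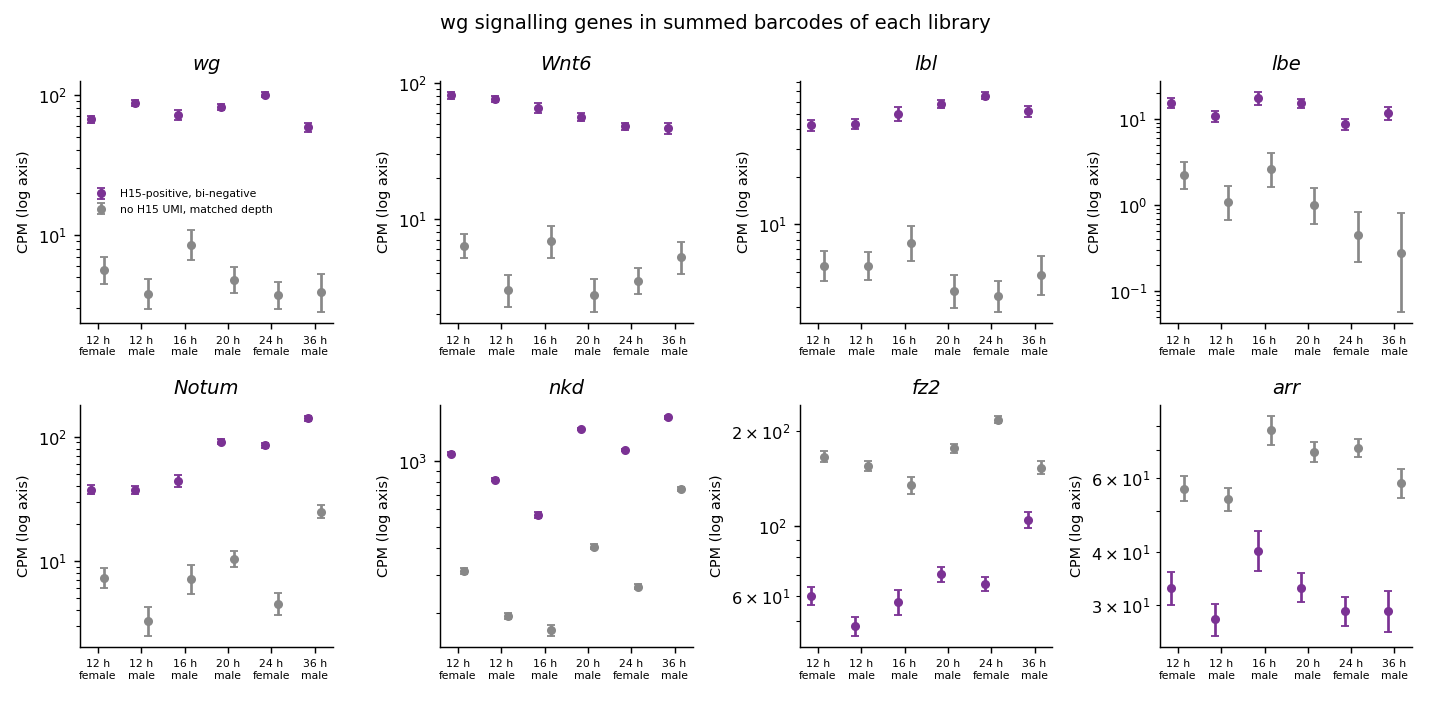
Levels of 8 wg pathway genes in CPM (log axis) in the summed H15-positive barcodes (purple, left of each pair) and the summed matched barcodes (grey) of each library, with exact 95% Poisson intervals for counting error. wg, Wnt6, lbl, lbe and Notum are higher and fz2 and arr lower in H15-positive barcodes with no overlap over the 6 libraries.

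The ladybird genes, homeobox genes known from the embryonic epidermis and muscle precursors, and gooseberry (gsb), a Pax gene coupled to wg in the embryo, were also among the 10 largest positive differences. ladybird late (lbl) stood at 42.5 to 65.5 CPM (median 51.0) in H15-positive and 3.52 to 7.61 CPM (median 5.11) in matched barcodes, without overlap. Its log2 difference was 3.37 ± 0.22 (SE; edgeR adjusted p = 0.000435). ladybird early (lbe), 7443 bases from lbl on 3R, stood at 8.63 to 17.4 CPM (median 13.4) in H15-positive and 0.28 to 2.62 CPM (median 1.05) in matched barcodes, a log2 difference of 3.45 ± 0.26 (edgeR adjusted p = 0.000583). An lbl UMI was found in 21.8% to 45.1% of H15-positive and 2.89% to 5.15% of matched barcodes. gsb was scarcer at 1.87 to 7.85 CPM in H15-positive and 0.0546 to 1.19 CPM in matched barcodes, with a log2 difference of 3.90 ± 0.38 (edgeR adjusted p = 0.00105). Only 1.19% to 5.80% of H15-positive barcodes had a gsb UMI.

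Negative regulators of Wnt signalling were high as well. Notum, a secreted deacylase that inactivates Wnt proteins, stood at 37.4, 37.1, 43.9, 91.3, 85.7 and 141 CPM in H15-positive and 7.33, 3.27, 7.12, 10.4, 4.52 and 25.0 CPM in matched barcodes from the 12 h female to the 36 h male. The sets did not overlap, and both were highest at 36 h. This was a log2 difference of 3.03 ± 0.27 (SE; edgeR adjusted p = 0.00144). A noncoding gene 1973 bases from Notum on the opposite strand, lncRNA:CR43949 (3L, 16020409 to 16021506, overlapping lncRNA:CR45998 on the other strand), was higher within every library, at 2.18 to 31.1 CPM (median 6.68) in H15-positive and 0.218 to 2.34 CPM (median 0.606) in matched barcodes. Its log2 difference was 3.35 ± 0.31 (edgeR adjusted p = 0.00101). Naked cuticle (nkd), an intracellular inhibitor of the pathway, was the most abundant of the group at 564 to 1596 CPM (median 1104) in H15-positive and 166 to 743 CPM (median 289) in matched barcodes, and was higher by 1.75 ± 0.13 (edgeR adjusted p = 0.000606). The receptor gene frizzled 3 (fz3) was higher by 1.36 ± 0.10 (edgeR adjusted p = 0.000327).

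A receptor gene and a co-receptor gene of the pathway ran the other way. frizzled 2 (fz2), which encodes a Wg receptor, stood at 59.8, 48.0, 57.3, 70.4, 65.4 and 105 CPM in H15-positive and 166, 155, 135, 176, 218 and 153 CPM in matched barcodes. arrow (arr), the LRP co-receptor, stood at 27.7 to 40.3 CPM (median 30.9) in H15-positive and 53.5 to 78.1 CPM (median 63.8) in matched barcodes. Neither gene's sets overlapped. The log2 differences were -1.36 ± 0.16 for fz2 (SE; edgeR adjusted p = 0.00322) and -1.03 ± 0.06 for arr (edgeR adjusted p = 0.000199). The glypicans split: dally-like (dlp) was higher by 0.83 ± 0.07 (edgeR adjusted p = 0.000399) and dally lower, at -0.40 ± 0.07 (edgeR adjusted p = 0.0059). armadillo (arm) and pangolin (pan), which encode the beta-catenin and the TCF of the pathway, had log2 differences of -0.04 and 0.01 and did not pass. The receptor gene frizzled (fz), also listed, did not pass either.

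**Figure D3:**
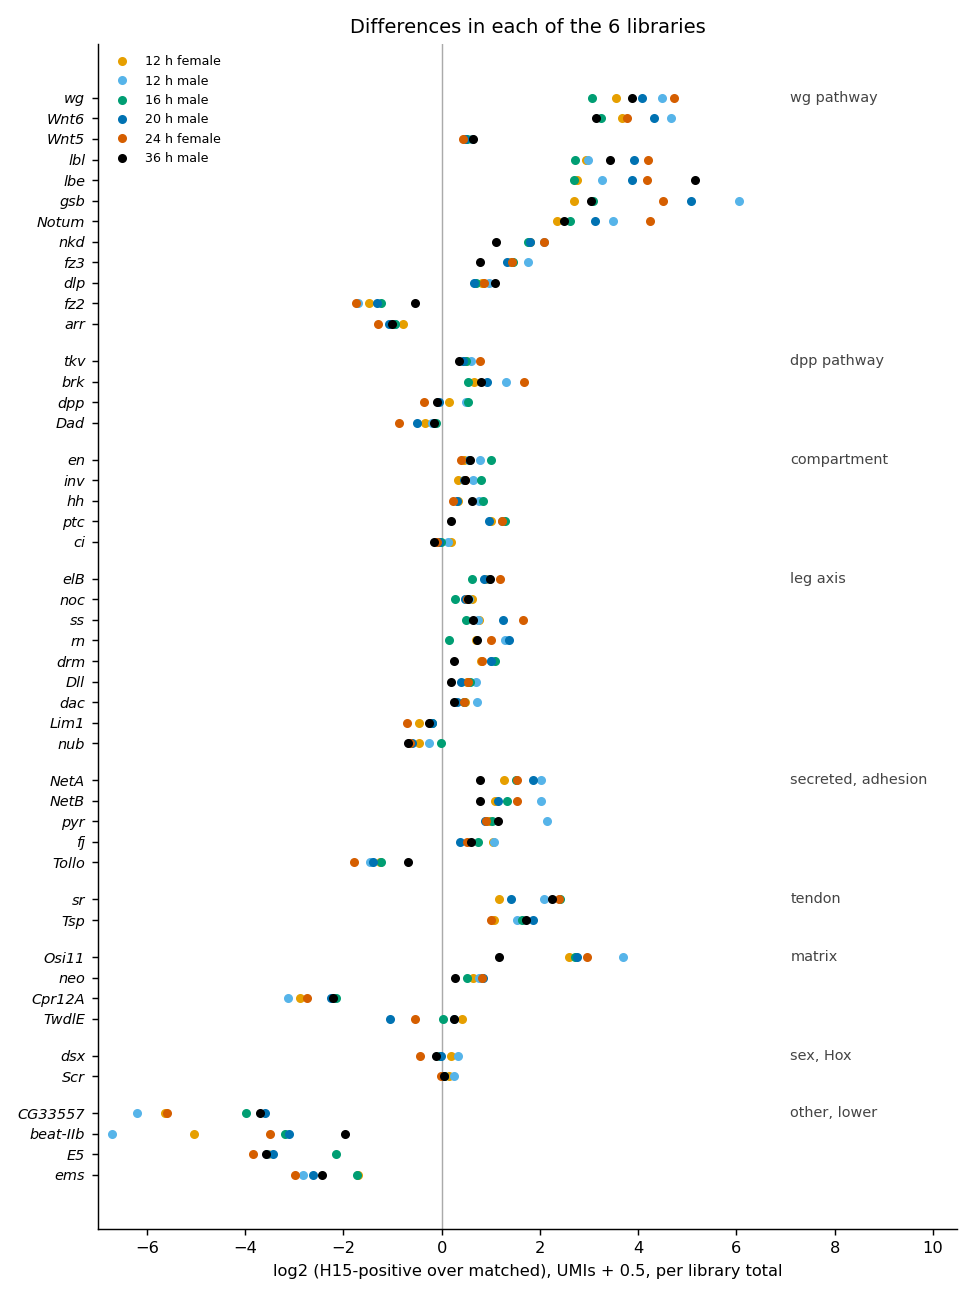
Log2 ratio of H15-positive to matched barcodes (0.5 UMIs added to each sum) for genes named in the text, grouped by role, with 1 point per library coloured by library. Points right of the line at 0 are higher in H15-positive barcodes. wg, Wnt6, lbl, lbe, gsb and Notum lie above 2 in all 6 libraries.

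Genes of the dpp pathway were called in both directions. Of 13 listed genes 9 were tested, with 2 higher and 1 lower, beside 7.13% higher and 7.09% lower over all genes. brinker (brk), a repressor of Dpp target genes, stood at 30.2, 19.4, 16.0, 29.9, 17.1 and 28.1 CPM in H15-positive and 19.1, 7.80, 11, 15.9, 5.38 and 16.2 CPM in matched barcodes, higher in 6 of 6 libraries although the ranges over libraries overlapped. This was a log2 difference of 0.97 ± 0.15 (SE; edgeR adjusted p = 0.00602). thickveins (tkv), the type I receptor, was higher by 0.51 ± 0.06 (edgeR adjusted p = 0.00144), and daughters against dpp (Dad), an inhibitory Smad, was lower, at -0.39 ± 0.10 (edgeR adjusted p = 0.0343). dpp itself depended on which barcodes were matched, at 0.08 ± 0.11 in the main comparison (edgeR adjusted p = 0.715), -0.39 against barcodes with bi (edgeR adjusted p = 0.0241) and 0.78 against barcodes without bi (edgeR adjusted p = 0.00382). Dad turned with it, to 0.18 against barcodes without bi (edgeR adjusted p = 0.193), where tkv was 0.21 and no longer passed (edgeR adjusted p = 0.0608). The Dorsocross genes were near the floor: Doc1 had 0 to 5 UMIs per library in H15-positive and 2 to 34 in matched barcodes, lower in 6 of 6, and Doc3 was lower in 5 of 6. Neither passed the filter of the main comparison. Without the 36 h male Doc1 was tested, at -2.55 (edgeR adjusted p = 0.00306), and Doc3 was tested against barcodes with bi, at -1.21 (edgeR adjusted p = 0.0866).

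Genes of both compartments were present. en, inv and hh were each higher in 6 of 6 libraries, by 0.60 ± 0.08 (edgeR adjusted p = 0.00215), 0.50 ± 0.06 (edgeR adjusted p = 0.0019) and 0.49 ± 0.08 (edgeR adjusted p = 0.00813). Against barcodes with bi inv was 0.27 and did not pass (edgeR adjusted p = 0.072). ptc, the Hedgehog receptor and target, stood at 240, 133, 138, 189, 230 and 124 CPM in H15-positive and 119, 56.6, 56.3, 96.6, 98.0 and 109 CPM in matched barcodes. The sets did not overlap, with the smallest gap within a library at 36 h. Its log2 difference was 0.97 ± 0.14 (SE; edgeR adjusted p = 0.00543), and 0.49 against barcodes with bi (edgeR adjusted p = 0.061). ci did not pass (-0.02 ± 0.05, edgeR adjusted p = 0.864). An en, inv or hh UMI was found in 37.0% to 49.4% of H15-positive and 24.2% to 41.3% of matched barcodes, more often in 6 of 6 libraries.

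The H15-positive barcodes were then split by these 3 genes and paired on depth, as a description. Those with an en, inv or hh UMI had less ci in 6 of 6 libraries, by -1.14 to -1.60 on the log2 scale. They had less wg, by -0.70 and -0.50 at 12 h in females and males and by -1.05 to -1.54 in the 4 other libraries, and less Wnt6, by -0.63 to -1.64. The values of nkd, lbl, lbe and Notum lay between -0.47 and 0.23, with nkd higher in 6 libraries, lbl higher in 3 and lower in 3, lbe lower in 5 and Notum lower in 4. mid was higher with posterior genes in 6 of 6 libraries, by 0.35 to 0.59. dsx was lower with posterior genes in 5 libraries, by -0.47 to -0.79, but 0.03 in the 36 h male, and Scr was lower in 6 of 6, by -0.09 to -0.47. TwdlE was higher with posterior genes by 1.77, 1.72, 1.46, 0.76 and 1.20 in the first 5 libraries, and lower at -0.45 in the 36 h male.

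**Figure D4:**
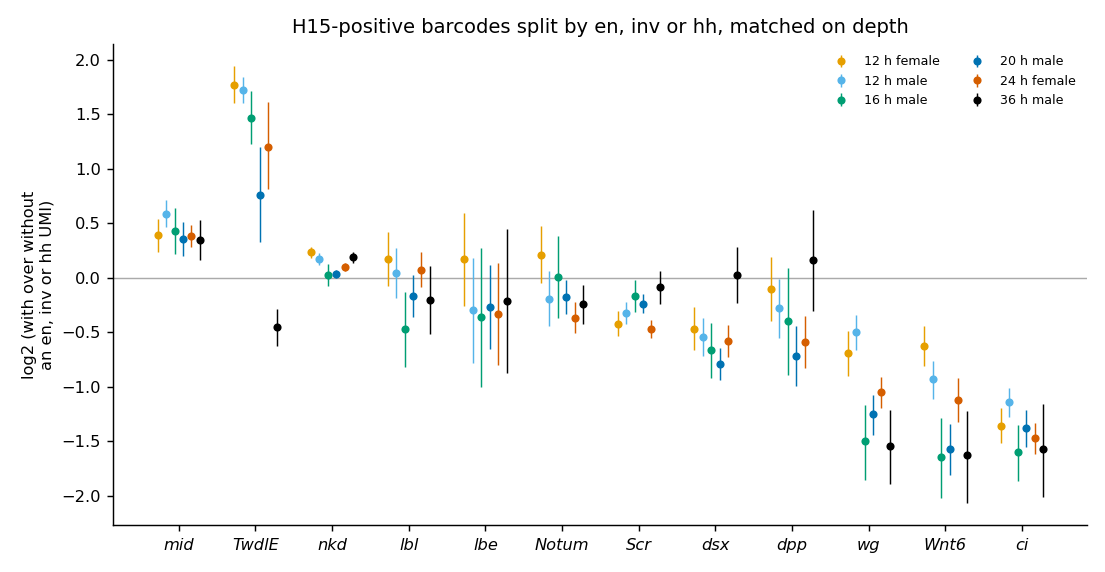
Log2 ratio of H15-positive barcodes with an en, inv or hh UMI to those without, paired on total UMIs, for 12 genes; 1 point per library with its 95% counting interval. ci, wg and Wnt6 lie below 0 and mid above 0 in all 6 libraries, and TwdlE lies above 0 in all but the 36 h male.

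A second split was by mid itself, and H15 was higher beside mid in 6 of 6 libraries by 0.22 to 0.59. Barcodes with mid had more gsb in 6 of 6 libraries, by 0.60 to 2.13, on 15 to 38 UMIs with mid and 3 to 20 without. Its counting interval included 0 in the 12 h female, 12 h male and 16 h male. wg was higher beside mid in 6 of 6, by 0.08 to 0.78, and so were lbl, by 0.11 to 0.56, Notum, by 0.22 to 0.57, and nkd, by 0.17 to 0.43. Counting intervals included 0 for wg in the 24 h female and 36 h male, lbl in the 24 h female and Notum in the 12 h female. Scr (-0.11 to 0.06) was higher in 3 libraries and lower in 3, and ci (-0.15 to 0.16) was lower in 5.

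Genes of the proximo-distal axis, which set segment identity along the leg, were counted beside the 7.13% higher and 7.09% lower over all genes. Of 29 listed 28 were tested, 14 were higher and 3 lower, with a median log2 difference of 0.25. Against barcodes with bi 8 of 28 were higher and 4 lower, beside 2.64% higher and 2.79% lower over all genes. Without barcodes of the 8 other-cell markers 6 of 22 were higher and 1 lower, beside 2.71% and 4.06% over all genes. The zinc-finger genes elbow B (elB) and no ocelli (noc) were higher by 0.91 ± 0.07 (edgeR adjusted p = 0.000583) and 0.48 ± 0.06 (edgeR adjusted p = 0.00178). elB stood at 276, 278, 149, 184, 359 and 224 CPM in H15-positive and 144, 142, 97.4, 101, 158 and 113 CPM in matched barcodes, higher within every library although the ranges overlapped. The tarsal genes spineless (ss) and rotund (rn) were higher by 0.91 ± 0.16 (edgeR adjusted p = 0.0123) and 0.89 ± 0.15 (edgeR adjusted p = 0.00813; 0.47 against barcodes without bi, edgeR adjusted p = 0.0581), and the ss sets did not overlap (81.3 to 118 CPM in H15-positive and 25.7 to 75.5 CPM in matched barcodes). The odd-skipped family gene drumstick (drm), which takes part in joint formation, was higher by 0.86 ± 0.08 (edgeR adjusted p = 0.000875; 0.35 without barcodes of the 8 markers, edgeR adjusted p = 0.604), and Distal-less (Dll), the leg selector, and dachshund (dac), a gene of the intermediate leg, by 0.47 ± 0.06 (edgeR adjusted p = 0.0019) and 0.42 ± 0.06 (edgeR adjusted p = 0.00322). The 3 lower were B-H1, Lim1 and nub. Lim1, a homeobox gene of the distal leg, was at -0.36 ± 0.07 (edgeR adjusted p = 0.0111) but 0.33 against barcodes without bi (edgeR adjusted p = 0.277). nub did not pass there (-0.12, edgeR adjusted p = 0.65), and B-H1 did not against barcodes with bi (-0.48, edgeR adjusted p = 0.141).

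Several genes for secreted and surface proteins set the barcodes apart. The neighbouring Netrin genes, which encode axon guidance cues, were both higher: NetB stood at 23.5 to 71.4 CPM (median 47.6) in H15-positive and 5.73 to 29.2 CPM (median 23.8) in matched barcodes (log2 difference 1.28 ± 0.14, edgeR adjusted p = 0.00194), and NetA was higher by 1.52 ± 0.18 (edgeR adjusted p = 0.0019), at 1.20 to 5.50 CPM in H15-positive and 0.273 to 1.5 CPM in matched barcodes. The FGF gene pyramus (pyr) was higher by 1.16 ± 0.17 (edgeR adjusted p = 0.00532). four-jointed (fj), a Golgi kinase of planar polarity, was higher by 0.70 ± 0.10 (edgeR adjusted p = 0.00459). Tollo, a Toll receptor gene, stood at 79.1, 45.5, 51.8, 143, 56.2 and 214 CPM in H15-positive and 189, 125, 123, 374, 194 and 343 CPM in matched barcodes, lower within every library (log2 difference -1.32 ± 0.13, edgeR adjusted p = 0.00178). Of the 12 EGFR pathway genes tested 5 were higher and none lower, beside 7.13% higher and 7.09% lower over all genes. Against barcodes with bi 3 of 12 were higher, beside 2.64% over all genes. Without barcodes of the 8 markers 1 of 11 was higher, beside 2.71% over all genes. Egfr itself was at 0.34 ± 0.05 (edgeR adjusted p = 0.00479), and 0.22 against barcodes with bi (edgeR adjusted p = 0.0518). The protease gene rhomboid (rho) was at 0.34 ± 0.06 (edgeR adjusted p = 0.00607), and 0.14 against barcodes without bi (edgeR adjusted p = 0.388). Of 14 Notch pathway genes 3 were higher (N, Dl and Ser, by 0.13 to 0.31) and 1 lower, beside the same 7.13% and 7.09% over all genes. The lower gene was E(spl)malpha-BFM, at -0.63 ± 0.12 (edgeR adjusted p = 0.0161), but 0.02 against barcodes without bi (edgeR adjusted p = 0.93). Against barcodes with bi N (0.08, edgeR adjusted p = 0.323) and Ser (0.26, edgeR adjusted p = 0.054) did not pass, nor did Dl without barcodes of the 8 markers (0.36, edgeR adjusted p = 0.0828).

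Tendon genes were higher. stripe (sr), the tendon selector, stood at 18, 24.8, 30.1, 30.6, 8.08 and 130 CPM in H15-positive and 7.99, 5.79, 5.62, 11.4, 1.54 and 27.1 CPM in matched barcodes from the 12 h female to the 36 h male. This was a log2 difference of 1.90 ± 0.18 (SE; edgeR adjusted p = 0.00141). At 36 h an sr UMI was found in 40.6% of H15-positive and 12.5% of matched barcodes, against 4.90% to 12.0% and 1.80% to 7.34% at the earlier ages. Thrombospondin (Tsp), a tendon matrix protein gene, was higher by 1.48 ± 0.12 (edgeR adjusted p = 0.000399), while how and slow, the other tendon markers listed, did not pass. Thus 2 of 4 were higher, beside 7.13% over all genes.

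Proneural and bristle genes diverged. achaete (ac) and scute (sc), the proneural genes, were higher by 0.61 ± 0.08 (edgeR adjusted p = 0.00303) and 0.66 ± 0.11 (edgeR adjusted p = 0.00752), each in 5 of 6 libraries (sc 0.85 against barcodes with bi, edgeR adjusted p = 0.0601), and were nearly absent at 36 h with 1 and 14 UMIs in H15-positive barcodes. senseless (sens), a marker of sensory precursors, was lower at -1.01 ± 0.20 (edgeR adjusted p = 0.0144), with 2.37 to 7.85 CPM in H15-positive and 3.12 to 14.3 CPM in matched barcodes at 12 and 16 h and at most 0.407 CPM later. The other 11 of 14 sensory organ markers tested did not pass, beside 7.13% higher and 7.09% lower over all genes. Of 20 cell cycle genes 19 did not pass, and dup was higher by 0.25 ± 0.06 (edgeR adjusted p = 0.0344), but 0.12 against barcodes without bi (edgeR adjusted p = 0.439).

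Genes of the apical matrix and cuticle were counted beside the 7.13% higher and 7.09% lower over all genes. Of 11 zona pellucida domain genes 4 were higher and none lower, led by neo at 0.62 ± 0.07 (edgeR adjusted p = 0.00194) and quasimodo (qsm) at 0.66 ± 0.11 (edgeR adjusted p = 0.00775). Of 10 Osiris genes tested 1 was called, Osi11, at 6.53, 5.24, 36.4, 21.7, 21.6 and 1888 CPM in H15-positive and 1.06, 0.382, 5.49, 3.20, 2.76 and 837 CPM in matched barcodes (log2 difference 2.32 ± 0.31, edgeR adjusted p = 0.00514). Both sets were highest at 36 h, where the ratio was smallest. None of 4 Tweedle genes tested was called, at a median log2 difference of 0.08. Of 11 chitin genes 1 was higher and 1 lower, and of 8 trichome and actin genes 2 were higher, with shavenoid (sha), which shapes trichomes, at 1.28 ± 0.20 (edgeR adjusted p = 0.00752). Of 12 ecdysone response genes 2 were higher and 1 lower in the main comparison. Without barcodes of the 8 markers none of 10 was called, beside 2.71% higher and 4.06% lower over all genes. EcR was higher by 0.22 (edgeR adjusted p = 0.00337), and by 0.19 without barcodes of the 8 markers, where it did not pass (edgeR adjusted p = 0.108). Eip75B, at 0.13 (edgeR adjusted p = 0.0282), did not pass against barcodes with bi (edgeR adjusted p = 0.173), and br, at -0.60 (edgeR adjusted p = 0.0427), passed neither against barcodes with bi (edgeR adjusted p = 0.0723) nor against those without (edgeR adjusted p = 0.0651). Of 27 Cpr genes, which encode chitin-binding cuticle proteins, 2 were higher and 6 lower. Cpr12A stood at 72.8, 108, 5.24, 175, 129 and 0.187 CPM in H15-positive and 537, 944, 23.6, 841, 862 and 1.03 CPM in matched barcodes, lower within every library by -2.71 ± 0.13 (edgeR adjusted p = 0.000199), and its levels in the 16 h and 36 h males were far under those of the other 4. Cpr67Fa1 (3.01 ± 0.50, edgeR adjusted p = 0.00905) and the uncharacterized gene CG13056 (2.32 ± 0.36, edgeR adjusted p = 0.00883; 0.47 without barcodes of the 8 markers, edgeR adjusted p = 0.509) rested on few barcodes, with at most 1.94% and 11.4% of H15-positive barcodes carrying a UMI and up to 117 and 2634 UMIs in a single one.

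The sex and segment genes dsx and Scr did not pass the test in the main comparison. doublesex (dsx), the sex determination gene that marks the sex comb region, stood at 66.4, 75.5, 109, 111, 81.1 and 72.7 CPM in H15-positive and 58.0, 59.8, 112, 112, 110 and 78.3 CPM in matched barcodes, higher in the 12 h female and 12 h male and lower in the other 4. Its log2 difference was -0.03 ± 0.09 (SE; edgeR adjusted p = 0.874), and the single largest gap within a library was in the 24 h female, at -0.44. Sex combs reduced (Scr), the Hox gene of the foreleg, stood at 191 to 286 CPM in H15-positive and 178 to 276 CPM in matched barcodes (0.07 ± 0.04, edgeR adjusted p = 0.324). mCherry, driven by dsx-GAL4 in 4 libraries, was at 111, 176, 167 and 101 CPM in H15-positive and 105, 147, 210 and 198 CPM in matched barcodes of the 12 h female, 12 h male, 20 h male and 36 h male. Its log2 difference was -0.25 (edgeR adjusted p = 0.524), and -0.97 against barcodes without bi, where it passed (edgeR adjusted p = 0.0128). fruitless (fru) stood at 1.94 to 2.90 CPM in H15-positive and 3.34 to 5.35 CPM in matched barcodes up to 24 h, and at 2424 and 1355 CPM at 36 h, when 95.6% and 83.7% of barcodes had a fru UMI. Over all libraries the log2 difference was -0.34 and did not pass (edgeR adjusted p = 0.564), while without the 36 h male it was -0.96 ± 0.12 and passed (edgeR adjusted p = 0.00198).

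The largest negative differences depended in part on whether the matched barcodes carried bi. CG33557, which encodes a helix-loop-helix protein, stood at 2.57, 0.982, 2.75, 1.17, 0.948 and 0.187 CPM in H15-positive and 128, 74.7, 44.6, 14.6, 46.9 and 2.99 CPM in matched barcodes (log2 difference -5.17 ± 0.35, edgeR adjusted p = 0.000583). It rested on few barcodes, with a UMI in 0.159% to 2.94% of H15-positive and 0.952% to 7.99% of matched barcodes. A single matched barcode of the 12 h female held 106 UMIs. Against barcodes without bi the log2 difference of CG33557 was only -1.72. beat-IIb, a cell adhesion gene of the immunoglobulin family, moved likewise, at -3.93 ± 0.54 in the main comparison (edgeR adjusted p = 0.00607), -4.62 against barcodes with bi and -1.06 against those without. The linked homeobox genes E5 and empty spiracles (ems), 26936 bases apart on 3R, were lower in all 3 comparisons, at -3.44, -3.71 and -2.98 for E5 (main edgeR adjusted p = 0.000199) and -2.42, -2.66 and -2.02 for ems (main edgeR adjusted p = 0.000606). lncRNA:CR32773, at -3.17 ± 0.28 (edgeR adjusted p = 0.00144), overlaps bi on the opposite strand, and bi was used in the rule. It was -0.34 against barcodes without bi and did not pass there (edgeR adjusted p = 0.0844). The others of the 10 largest were Sox100B, a Sox factor gene (-4.91), the tubulin gene alphaTub85E (-3.91), the cecropin gene CecC (-3.75), CG5080 (-3.73), CG13116 (-3.24) and CG42807 (-3.15), each lower in 6 of 6 libraries with edgeR adjusted p values of 0.000248 to 0.00178.

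Markers of other cells moved with the comparison. The 6 hemocyte markers summed to 21.6 to 34.1 CPM in H15-positive and 39.6 to 131 CPM in matched barcodes, and the 5 muscle markers to 41.4 to 165 CPM and 99.5 to 382 CPM, both lower in 6 of 6 libraries. In every library 1 hemocyte marker was at 0 in both sets, Hml, which the rule excludes. Of the markers tested, 4 of 5 hemocyte, 3 of 4 muscle and 1 of 3 glia genes were lower and none of these was higher, while the 3 tracheal markers did not pass. Over all genes 7.13% were higher and 7.09% lower. Against barcodes with bi, none of 4 hemocyte and none of 3 glia genes was called and 2 of 4 muscle genes were lower, beside 2.79% lower over all genes. Of 5 neuron markers 1 was higher, the synaptic gene brp, by 0.45 ± 0.09 (edgeR adjusted p = 0.0157), and 0.33 against barcodes with bi, where it did not pass (edgeR adjusted p = 0.0717). Secreted matrix genes known from hemocytes and fat body, SPARC (-2.82 ± 0.27, edgeR adjusted p = 0.00178) and Col4a1 (-2.69 ± 0.25, edgeR adjusted p = 0.00138), were lower, and so was the muscle precursor gene Him (-4.34 ± 0.36, edgeR adjusted p = 0.00178), in 5 of 5 libraries that had a UMI. The part of such barcodes in the other negative differences was not tested. With any UMI of 8 other-cell markers removed, wg (3.63), Wnt6 (3.15), lbl (3.48), Notum (2.97), fz2 (-1.49) and E5 (-3.77) kept their direction and passed.

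Few genes had a difference between H15-positive and matched barcodes that was called to change with age. A slope of the log2 difference on age was called upward for 24 genes (0.287%) and downward for 22 (0.263%) of 8360 by edgeR. Without the 36 h male, 3 of the 24 and 2 of the 22 were still called. Of the ventral genes above, wg (0.02 per hour), Wnt6 (-0.03), lbl (0.04), Notum (-0.01) and nkd (-0.03) did not pass, with edgeR adjusted p values of 0.903, 0.635, 0.571, 0.984 and 0.358. Wnt2 was called upward at 0.03 per hour (edgeR adjusted p = 0.0421). Levels within the H15-positive barcodes themselves did move between libraries: over all H15-positive barcodes lncRNA:CR43949 stood at 3.13, 2.16, 5.41, 10.9, 7.81 and 30.2 CPM from the 12 h female to the 36 h male and Notum at 37.3, 36.8, 43.5, 91.1, 85.3 and 138 CPM. The female and male libraries of 12 h did not differ beyond counting error in Notum, and 36 h was highest for both genes. These levels were not tested.

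**Figure D5:**
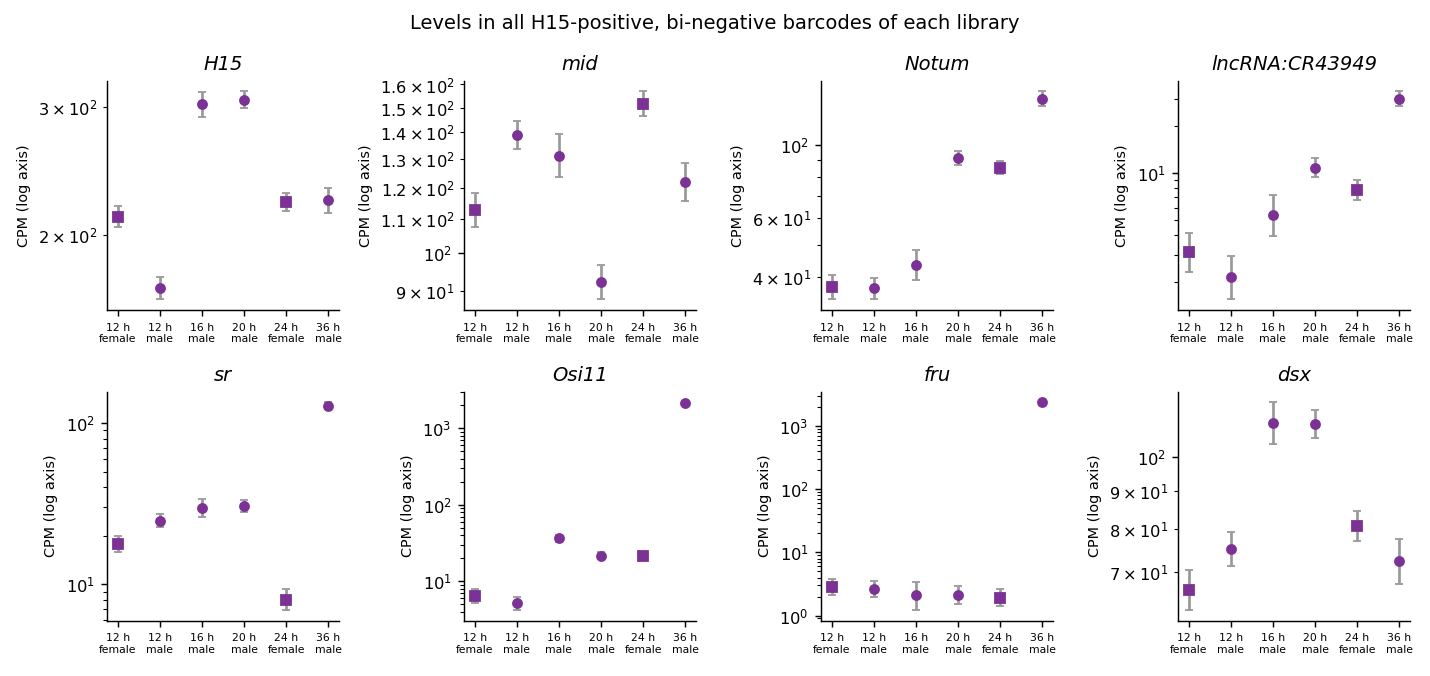
Levels of 8 genes in CPM (log axis) summed over all H15-positive barcodes of each library, with exact 95% Poisson intervals; squares are female and circles male libraries. Notum, lncRNA:CR43949, sr, Osi11 and fru are highest in the 36 h male, H15 is highest in the 16 h and 20 h males, and mid is lowest in the 20 h male.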

How the data were processed

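The 6 deposited matrices hold raw UMI counts per gene and barcode. Per the file headers, the authors ran Cell Ranger 7.0.0, and the submitters' processing notes name BDGP6. Barcode filters and a strand setting are not given in the sources used here. A further 2 matrices match no sample and were not analysed here. The matrices held 12000 barcodes each (13998 in the 24 h female), of which 10610 to 13928 were kept, with 67454195 to 187111196 UMIs in all per library. Of 16496 features, 16447 were in the gene name table.

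The members and the gene lists were chosen with earlier results of these data known. No doublets were removed, except in an alternative that drops the highest Scrublet scores at 0.8% per 1000 barcodes (scanpy 1.11.5). UMIs of H15-positive and of matched barcodes were summed by library, giving 12 sums, and tested with edgeR 4.0.16 (R 4.3.3; TMM scaling, low-count filter, quasi-likelihood test, Benjamini-Hochberg adjustment over all genes at 0.05) with library as a block, which pairs the sums because both come from the same pooled animals. The spread is that between 6 libraries of different age, sex and genotype. A second fit added the difference times age. H15, bi, mid, Hml, elav, repo and twi, which the rule used, were left out of the edgeR fits. Of these, mid alone was tested, by the share of barcodes that had it. On counts simulated for 8279 genes the first fit recovered 72% of 1.5-fold, 88% of 2-fold and 94% of 3-fold changes with 4% of calls false, and the age fit (8285 genes) 18%, 56% and 68% with 12.3% false.

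The text names up to 4 called genes per list by p, fixed markers, the 10 largest differences in each direction among called genes with the same sign in 6 libraries and at least 200 UMIs, and the 5 largest age slopes each way. Other genes were named after their values were seen. The Cpr, Osiris and Tweedle genes are families whose close copies may share reads. Intervals (Clopper-Pearson, Poisson, conditional binomial, all 95%) cover counting error only. The floor for a level of 0, at 3 counts, was 0.136 to 0.374 CPM over the summed H15-positive barcodes. Coordinates are from Ensembl's BDGP6.54 annotation, matched by gene ID. Alternatives were another scaling, DESeq2 1.42.0, no filter, no block, other matched sets, thresholds and doublets, and each library left out.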

Additional observations from a re-analysis of the deposited data

Results flagged for a closer look

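The log2 difference between H15-positive and matched barcodes had a called slope on age for the genes below in the main comparison, which had the 5 largest slopes in each direction among those that passed edgeR's test of the slope. Upward slopes in log2 units per hour were 0.33 for Cpr31A (adjusted p = 0.028), 0.21 for TwdlT (adjusted p = 0.0226), 0.21 for side (adjusted p = 0.00727), 0.20 for CG10479 (adjusted p = 0.00497) and 0.15 for eEF1alpha2 (adjusted p = 0.00497). Downward slopes were -0.36 for CG17777 (adjusted p = 0.0484), -0.23 for Cpr50Cb (adjusted p = 0.0216), -0.17 for CG13071 (adjusted p = 0.0185), -0.13 for ZnT35C (adjusted p = 0.0268) and -0.10 for CG34247 (adjusted p = 0.0216). Most of these calls depended on the matched set or on 1 library. Against barcodes without bi only TwdlT (0.21, adjusted p = 0.0197) and CG17777 (-0.29, adjusted p = 0.0143) passed by edgeR, while side was 0.02, CG10479 0.04 and ZnT35C -0.04 with adjusted p values of 0.882, 0.715 and 0.683. Without the 36 h male Cpr31A, side and CG13071 passed by edgeR, Cpr50Cb was not tested, and the other 6 did not pass, among them TwdlT (0.13, adjusted p = 0.546) and CG17777 (-0.14, adjusted p = 0.582).

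The cuticle gene TwdlT had 200 UMIs in H15-positive barcodes of the 36 h male, of which 135 were in 1 barcode. CG17777 had 70 UMIs in H15-positive and 3425 in matched barcodes there. Cpr31A had at most 38 UMIs per library in H15-positive barcodes. CG34247 was the most abundant of these genes, at 11321 to 32036 CPM in H15-positive and 8937 to 45711 CPM in matched barcodes up to 24 h, and at 25.8 and 137 CPM at 36 h.

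The axon guidance gene side stood at 2.11, 1.15, 0.874, 2.72, 1.04 and 6.45 CPM in H15-positive and 45.8, 28.3, 6.49, 9.56, 2.85 and 4.86 CPM in matched barcodes from the 12 h female to the 36 h male. eEF1alpha2, an elongation factor gene, stood at 29.1 CPM in H15-positive and 16.2 CPM in matched barcodes at 36 h, when the 6 neuron markers summed to 229 and 125 CPM and 10.9% and 6.35% of barcodes had at least 3 UMIs of 5 neuron genes. In the first 5 libraries the neuron markers summed to 15.2 to 46.8 CPM in H15-positive and 20.4 to 52.1 CPM in matched barcodes. Their part in these slopes was not tested.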

How the results depend on the processing

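No gene called in the main comparison was called in the opposite direction under any alternative. The 596 higher and 593 lower genes became 7 and 69 with no replicate block, 178 and 267 without barcodes of 8 other-cell markers, 219 and 232 against matched barcodes with bi, and 74 and 181 with the 4 male libraries alone (the last 2 alternatives, and one that asks for mid, were chosen after seeing the data). Against matched barcodes without bi 908 were higher. Leaving out each library gave 253 to 651 higher and 363 to 686 lower genes, with the fewest without the 12 h female and the 12 h male. The 24 upward and 22 downward age slopes became 78 and 52 with DESeq2, 69 and 48 with no filter, 0 and 0 with no replicate block (77 genes at an unadjusted p under 0.05 there), 9 and 6 against barcodes without bi, 43 and 40 against barcodes with bi, and 5 to 65 and 2 to 61 with a library left out. Without the 36 h male 3 of the 24 and 2 of the 22 were still called. The mid difference was 30.9 percentage points against matched barcodes without bi. It was 38.4 to 42.8 percentage points with a library left out, where 5 pairs cannot give an exact permutation p below 0.0625.

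Against matched barcodes without bi, Dad (0.18), E(spl)malpha-BFM (0.0162) and Lim1 (0.33) changed sign, and against those with bi dpp did (-0.39). The cause was not tested. Genes that passed neither way also changed sign. Against barcodes without bi these were TwdlE (0.15), ci (0.0366), fru (0.0276), TwdlT (-0.0264), ZnT35C (0.34) and CG17777 (0.27), and against barcodes with bi Wnt4 (-0.20), dsx (0.0272) and mCherry (0.23). TwdlE was 0.16 and fru 0.85 with no replicate block, and TwdlE was 0.0949 with at least 2 H15 UMIs, 0.19 without the 8 markers and 0.0499 in barcodes with mid. ci was 0.002163 with library totals, 0.008016 with no filter and 0.007019 without doublets, and dsx was 0.0163 in males alone. CG17777 (0.81) and TwdlT (-0.32) turned with DESeq2, and TwdlT (-0.0687) with barcodes taken whatever their bi. With a library left out, genes that changed sign ran -0.3913 to 0.1469 for CG13071, -1.374 to 1.188 for CG17777, -0.1915 to 0.07821 for TwdlE, -0.8691 to 0.5623 for TwdlT, -0.5015 to 0.07261 for ZnT35C, -0.06094 to 0.001561 for ci, -0.00883 to 0.1726 for dpp, -0.1032 to 0.05174 for dsx. Of 100 genes taken by name that passed, 79 were lost with no replicate block and 2 without the 36 h male, and of 99 that could be tested 46 were lost with male libraries alone and 28 against barcodes with bi. Library totals alone moved the median log2 difference of all genes to 0.05 and DESeq2 size factors moved it to 0.04. Depth limits scarce genes such as gsb, Wnt10 and Doc1, and the 16 h male library most.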
